A study of Mus musculus with 12 samples.

Results

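Zp1, Zp2 and Zp3 encode the glycoproteins of the mouse zona pellucida, the extracellular coat that surrounds the oocyte. They were taken by symbol from a table of 23230 genes, in which each was listed once, and all 3 passed the filter of at least 1 FPKM (mapped fragments normalised to transcript length and library size) in at least 1 library that left 11502 genes. The oocytes were WT or Zar1/2-null and were collected while growing, when fully grown at the germinal vesicle (GV) stage, or after ovulation, the group labelled metaphase II (MII). Each of the 6 groups had 2 Smart-seq2 libraries, made by oligo-dT priming from 10 oocytes per library. All mice shared a C57BL6/ICR hybrid background, and the Zar1/2-null mice carried CRISPR/Cas9 alleles of both Zar1 and Zar2 in every tissue. The labels put the donors of growing oocytes at 13.5 days and the methods at 12 days of age. GV oocytes were collected from 21-day-old females 44 h after PMSG. MII oocytes were taken from oviducts 16 h after hCG, and the methods give superovulated females as 21 to 23 days old, with hCG 44 h after PMSG. The study describes ovulated Zar1/2-null oocytes as arrested in meiosis I, in metaphase or telophase, without an assembled MII spindle. MII is therefore used for that genotype as the label of the group. In every MII comparison of these libraries the genotype and the meiotic stage reached cannot be told apart. In separate cultures the study held maturing oocytes in meiosis I with nocodazole. By RT-qPCR it reported that the degradation of selected mRNAs was unaffected.

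The zona is laid down during oocyte growth, when the oocyte transcribes the 3 genes strongly and secretes their products. ZP1, ZP2 and ZP3 share a ZP domain through which they polymerise, ZP1 links the filaments, and ZP2 takes part in sperm binding and is cleaved after fertilisation. Transcription stops in the fully grown oocyte, and during meiotic maturation a large share of the stored maternal mRNA is degraded. ZAR1 and ZAR2 are oocyte RNA-binding proteins, and Zar2 is listed under the symbol Zar1l.

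The transcripts share a very short 3′ UTR in the mm9 annotation. Zp1 lies on the minus strand of chromosome 19 from 10988777 to 10995122, and its main transcript has 12 exons, 1963 nt and a 3′ UTR of 34 nt. Zp2 lies on the minus strand of chromosome 7 from 127270286 to 127288804, with 18 exons, 2200 nt and a 3′ UTR of 28 nt. Zp3 lies on the plus strand of chromosome 5 from 136455969 to 136464494, with 8 exons, 1323 nt and a 3′ UTR of 13 nt. The median over 18488 genes with an annotated 3′ UTR was 717 nt, and 3′ UTRs as short were found in 2.07% of genes for Zp1, 1.57% for Zp2 and 0.444% for Zp3. The annotation also holds a second coding transcript of Zp1 with a 3′ UTR of 193 nt and one of Zp2 with 173 nt. The last 30 nt of the main transcripts are shown because they hold nearly all or all of the untranslated sequence, with the polyadenylation signal AATAAA in capitals (mm9, 5′ to 3′ on the coding strand):
Zp1, chr19:10988779-10988808: actcAATAAAccattgtttgaaaactcctg
Zp2, chr7:127275875-127275904: gattggacttgcaAATAAAgagactgcagt
Zp3, chr5:136464465-136464494: tatcccttccgcAATAAAagaagaaactca
The signal began 26 nt before the end of the transcript in Zp1, 17 nt before it in Zp2 and 18 nt before it in Zp3. In Zp3 it began 5 nt before the 3′ UTR and so overlapped the stop codon. A signal with these letters was present in the last 30 nt of 48.8% of 20205 coding transcripts, 1 per gene.

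The promoter sequence was read for Zp3, the member with an entry in the RefSeq table (GRCm38.p6). The basic helix-loop-helix factor FIGLA is known to act on zona genes through E-boxes, so the letters CANNTG were searched on both strands, a motif that reads the same way on either. The window of 300 bases (chr5:135979855-135980154, plus strand) held 4 matches, which are shown in capitals with 12 bases on each side and named by the distance of their first base from the start site:
E-box at -181: ttgaataggaatCACGTGgagtgtctttac
E-box at -134: tgatcgttggttCAGATGaggtttgaggcc
E-box at -55: gcagagggaattCAGGTGggagggtgggcc
E-box at 8: tcattctgagccCAGCTGtactccaggcgg
At least 1 CANNTG was present in 72.3% of 32851 promoters of the same length, and CACGTG in 7.15%. A match describes the sequence and is not a measured binding site.

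The values are ERCC-scaled FPKM, per transcript length, so that levels of different genes can be set side by side. Relative sequencing depth, read from the steps between low values, ranged from 0.912 to 1.24 among the libraries. At least 785 fragments were estimated behind each value of the 3 genes, for a counting error of at most 3.57%. The factor by which the authors had multiplied a library ranged from 0.225 to 1, and a value in TPM (each library scaled to the same total) holds no such factor. Zar1l, one of the targeted genes, ranged from 13.2 to 20.9 FPKM in the Zar1/2-null growing and GV libraries and from 504 to 644 FPKM in WT. At MII it had 1.36 and 1.01 FPKM in Zar1/2-null and 3.13 and 4.72 FPKM in WT libraries. Zar1 stayed at 136 to 460 FPKM in Zar1/2-null libraries. Its allele is a small deletion followed by a stop codon, so its level does not check the genotype labels. The summed level of 8 oocyte markers was 2510 to 13780 FPKM in the 12 libraries, with all 8 at 1 FPKM or more in every group. The sum of 11 granulosa and cumulus markers was 4.28 to 24.9 FPKM, that of 4 immune markers 0.458 to 3.07 FPKM, and that of 5 oviduct markers 0.308 to 1.32 FPKM with all 5 under 1 FPKM. Granulosa and cumulus markers summed to 21.0 to 24.9 FPKM in WT growing and 5.87 to 11.0 FPKM in Zar1/2-null growing libraries. At the GV stage the sums were 12.9 to 15.1 FPKM in WT and 7.63 to 9.72 FPKM in Zar1/2-null libraries. At MII these markers summed to 4.28 to 4.40 FPKM in WT and 6.09 to 7.24 FPKM in Zar1/2-null libraries. Their part in the results was not tested. In pools of 10 oocytes, fewer oocytes with a transcript and less of it in each oocyte cannot be told apart.

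In growing oocytes the 3 genes were among the most abundant of the transcriptome in both genotypes. WT growing libraries held 1132 and 1336 FPKM of Zp1, and Zar1/2-null ones 1403 and 1361 FPKM. Zp2 had 3062 and 3037 FPKM in WT and 3472 and 3129 FPKM in Zar1/2-null libraries. Zp3 had 2950 and 3331 FPKM in WT and 3662 and 3508 FPKM in Zar1/2-null libraries. For each of the 3 genes the lower Zar1/2-null library therefore exceeded the higher WT library, an order found in 22.4% of all 11502 genes. Each WT growing library was the scaling reference of its own replicate number (factor 1), so this order sets libraries on different references side by side. In TPM, which holds no such factor, the order was the same for the 3 genes.

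By mean FPKM over all 23230 genes, Zp1 ranked 61st, Zp2 14th and Zp3 13th in WT growing oocytes, and 38th, 9th and 7th in Zar1/2-null growing oocytes. The 3 genes together made up 1.17% ± 0.0687 of the summed FPKM of a WT growing library and 1.55% ± 0.0569 of a Zar1/2-null one (SD, n = 2 each). The genotype difference passed an adjusted p of 0.05 in limma for 0 of the 3 genes, 0 of which had an unadjusted p under 0.05, while 10.6% of all genes were higher and 24.4% lower. The log2 fold changes were 0.17 for Zp1 (standard error 0.24, adjusted p = 0.615), 0.11 for Zp2 (0.18, adjusted p = 0.665) and 0.19 for Zp3 (0.20, adjusted p = 0.476), beside a median of -0.16 over all genes. Without the ERCC factors Zp2 and Zp3 passed the threshold, with log2 fold changes of 0.40 and 0.48 (adjusted p = 0.0315 and 0.0311 from limma).

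Fully grown GV oocytes held less of each transcript than growing oocytes in both genotypes. In WT, Zp1 had 504 and 419 FPKM, Zp2 1480 and 1128 FPKM, and Zp3 1862 and 1679 FPKM. In Zar1/2-null oocytes, Zp1 had 366 and 581 FPKM, Zp2 1169 and 1427 FPKM, and Zp3 1387 and 1984 FPKM. Every GV library lay below both growing libraries of its genotype, an order found in 59.5% of all genes in WT and 68.9% in Zar1/2-null oocytes, and the genotypes overlapped at the GV stage for all 3 genes.

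From growth to the GV stage, the mean in WT fell to 37.4% for Zp1, 42.8% for Zp2 and 56.4% for Zp3. In limma the changes were -1.42 for Zp1 (standard error 0.24, adjusted p = 0.00258), -1.24 for Zp2 (0.18, adjusted p = 0.00146) and -0.83 for Zp3 (0.20, adjusted p = 0.0118) on the log2 scale. All 3 genes passed the threshold as lower, beside 28.7% of all genes lower and 2.77% higher, with a median change of -0.29. The Zp3 call was lost without WT growing replicate 2 or WT GV replicate 2 (adjusted p = 0.0897 and 0.0906 from limma), without the ERCC factors (adjusted p = 0.0933 from limma), with median scaling (0.140) and without the filter on low genes (0.0516). In Zar1/2-null oocytes the mean fell to 34.3%, 39.3% and 47.0%, with log2 changes of -1.58, -1.35 and -1.11 (adjusted p = 0.000244, 0.000121 and 0.000707 from limma). With median scaling the Zp3 change was -0.35 and its call was lost (adjusted p = 0.161 from limma). On the ERCC scale 55.9% of all genes were lower and 4.76% higher in Zar1/2-null oocytes, with a median of -0.50. The difference between the genotypes in this change was -0.16 for Zp1, -0.11 for Zp2 and -0.29 for Zp3 (standard errors 0.33, 0.26 and 0.28), and limma gave adjusted p = 0.791, 0.816 and 0.541. Of the 3 genes 0 passed the threshold and 0 had an unadjusted p under 0.05, beside 2.58% of all genes higher and 11.3% lower.

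The GV levels of the genotypes were 462 ± 60.0 and 474 ± 152 FPKM for Zp1, 1304 ± 248 and 1298 ± 182 FPKM for Zp2, and 1770 ± 130 and 1685 ± 423 FPKM for Zp3 (WT and Zar1/2-null, SD, n = 2 each). The log2 fold changes were 0.0043 for Zp1 and -0.00073 for Zp2 (standard errors 0.24 and 0.18, adjusted p = 0.992 and 1 from limma) and -0.09 for Zp3 (0.20, adjusted p = 0.720). With limma 0 of the 3 genes were called and 0 had an unadjusted p under 0.05, beside 2.83% of all genes higher and 40.6% lower, and the median over all genes was -0.38. The direction at this stage depended on the scaling. Without the ERCC factors the log2 fold changes were 0.46, 0.45 and 0.36, of which the one of Zp2 passed the threshold (adjusted p = 0.0231 from limma).

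Ovulated oocytes differed between the genotypes in all 3 transcripts. WT MII libraries held 13.8 and 20.5 FPKM of Zp1, and Zar1/2-null MII libraries 342 and 328 FPKM. Zp2 had 33.2 and 40.4 FPKM in WT and 691 and 633 FPKM in Zar1/2-null libraries. Zp3 had 16.7 and 16.1 FPKM in WT and 839 and 639 FPKM in Zar1/2-null libraries. The genotypes did not overlap for any of the 3 genes, and 43.5% of all genes had their Zar1/2-null libraries in this order. Even the closest pair of libraries differed 16.0-fold for Zp1, 15.7-fold for Zp2 and 38.2-fold for Zp3.

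**Figure D1:**
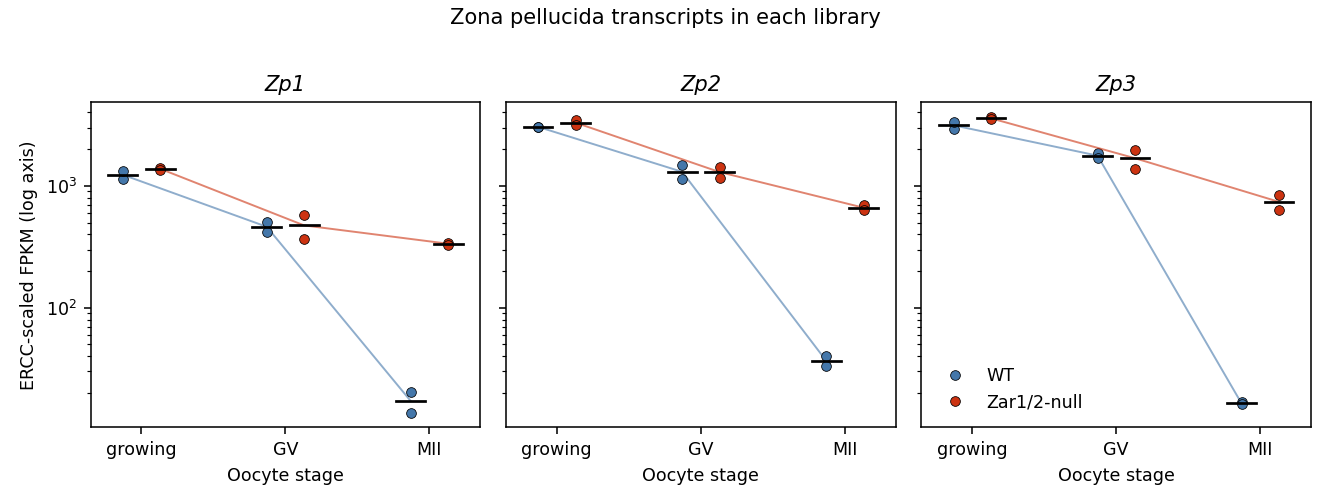
ERCC-scaled FPKM (log axis) of Zp1, Zp2 and Zp3 by oocyte stage in WT (blue) and Zar1/2-null (red) oocytes, with points for the 2 libraries of a group, black bars for their mean and lines that join the means. The genotypes lie close together in growing and GV oocytes, and at MII the Zar1/2-null libraries (328 to 839 FPKM) stand above the WT libraries (13.8 to 40.4 FPKM).

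The mean at MII was 19.5-fold higher in Zar1/2-null oocytes for Zp1, 18-fold for Zp2 and 45.1-fold for Zp3. On the log2(FPKM + 1) scale the differences were 4.24 for Zp1 (standard error 0.24, adjusted p = 1.13e-07), 4.14 for Zp2 (0.18, adjusted p = 1.68e-08) and 5.40 for Zp3 (0.20, adjusted p = 3.93e-09) in limma. The 3 genes were called higher, beside 21.5% of all genes higher and 10.3% lower, and all 3 passed the rule of a mean more than 3-fold higher, beside 7.49% of all genes. Ordered by log2 fold change over 11502 genes, Zp3 stood 32nd, Zp1 86th and Zp2 100th from the highest, and the median over all genes was 0.06. In TPM the folds were 12.6, 11.6 and 29. The balance over all genes depended more on the scaling, with 2472 genes higher and 1183 lower on the ERCC scale and 2151 and 4335 in TPM. Over all 22 alternatives the log2 differences ranged from 3.68 to 4.50 for Zp1, from 3.54 to 4.28 for Zp2 and from 4.84 to 5.59 for Zp3, with adjusted p of at most 0.00124 in limma.

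The order of the 6 groups was similar for the 3 genes. Growing oocytes of both genotypes stood highest, GV oocytes of both genotypes followed, Zar1/2-null MII oocytes came next and WT MII oocytes were lowest. The growing groups were neighbours that limma did not separate, and so were the GV groups, where WT had the higher mean of Zp2 and Zp3 and Zar1/2-null that of Zp1. Every Zar1/2-null MII library lay below every GV library of either genotype for each gene. By rank among all genes, Zp1, Zp2 and Zp3 went from 210th, 45th and 30th in WT GV to 1104th, 543rd and 1147th in WT MII oocytes. In Zar1/2-null oocytes they went from 165th, 30th and 23rd to 98th, 39th and 29th. The share of the summed FPKM held by the 3 genes was 0.669% ± 0.00335 in WT GV, 0.0566% ± 0.00979 in WT MII, 0.837% ± 0.155 in Zar1/2-null GV and 0.899% ± 0.0110 in Zar1/2-null MII libraries (SD, n = 2 each).

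The GV-to-MII fall was examined in each genotype, since most maternal transcripts fall at this step. In WT the mean at MII was 3.71% of the GV mean for Zp1, 2.82% for Zp2 and 0.927% for Zp3, falls of 26.9-fold, 35.5-fold and 108-fold. All 3 passed the rule of a more than 10-fold fall, beside 15.7% of all genes. The log2 changes were -4.69 for Zp1 (standard error 0.24, adjusted p = 6.49e-09), -5.10 for Zp2 (0.18, adjusted p = 5.16e-10) and -6.67 for Zp3 (0.20, adjusted p = 1.72e-10) in limma, which called 93.4% of all genes lower with a median of -1.28. Zp3 stood 69th, Zp2 308th and Zp1 471st among 11502 genes when ordered from the largest fall.

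In Zar1/2-null oocytes the MII mean was 70.7% of the GV mean for Zp1, 51.0% for Zp2 and 43.8% for Zp3. No member passed the 10-fold rule, which 6.66% of all genes did. Both MII libraries lay below both GV libraries for the 3 genes, as for 84.6% of all genes. Zp2 and Zp3 passed the threshold in limma, with log2 changes of -0.96 (standard error 0.18, adjusted p = 0.000591) and -1.18 (0.20, adjusted p = 0.000245), and Zp1 did not, with -0.46 (0.24, adjusted p = 0.104). Of all genes 68.7% were lower and 0.209% higher, and the median was -0.72. Without Zar1/2-null GV replicate 1 the change of Zp1 was -0.79 and passed the threshold (adjusted p = 0.0162 from limma).

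Whether the 3 transcripts fell at all in Zar1/2-null oocytes depended on the ERCC factors, which were 0.533 and 0.583 in the GV and 0.283 and 0.252 in the MII libraries of that genotype. In TPM the Zar1/2-null MII mean was 152% of the GV mean for Zp1, 109% for Zp2 and 93.5% for Zp3. The log2 change of Zp1 was then 0.64 (adjusted p = 0.0270 from limma), and those of Zp2 and Zp3 were 0.13 and -0.08 (adjusted p = 0.404 and 0.639). In WT the fall remained in TPM, to 15.9%, 12.1% and 3.92% of the GV mean, where 3151 of all genes were higher and 4784 lower at MII.

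**Figure D2:**
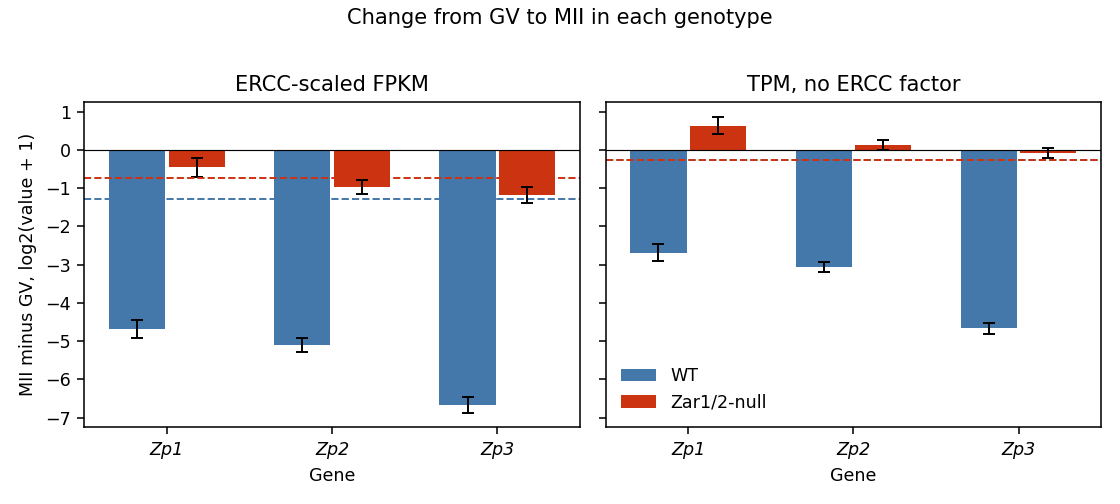
Change from GV to MII on the log2(value + 1) scale for each zona gene in WT (blue) and Zar1/2-null (red) oocytes, from ERCC-scaled FPKM (left) and from TPM (right). Bars are differences of group means of 2 libraries, error bars are limma standard errors and dashed lines are the medians over all 11502 genes. The WT bars reach -4.69 to -6.67 on the left and -2.68 to -4.66 on the right, and the Zar1/2-null bars change sign for Zp1 and Zp2 between the scales.

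How far maturation changed each transcript was then compared between genotypes, and neither direction nor call depended on the scaling. The interaction was 4.23 for Zp1 (standard error 0.33, adjusted p = 3.53e-06), 4.14 for Zp2 (0.26, adjusted p = 5.28e-07) and 5.49 for Zp3 (0.28, adjusted p = 1.19e-07) on the log2 scale in limma. All 3 passed as higher, beside 33.9% of all genes and a median of 0.48. In TPM the values were 3.32, 3.19 and 4.58, while 1467 of all genes were higher and 1585 lower in this contrast. This contrast shares its MII libraries with the comparison at MII, so the values of both are not independent.

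The zona transcripts were set beside other transcripts of like abundance. Apart from 12 Mir and Snor genes, 195 other genes had at least the WT GV level of Zp1 (462 FPKM). In WT their median MII level was 8.83% of the GV level (quartiles 2.1% and 38.8%), and 68 kept no more than Zp1, 56 no more than Zp2 and 34 no more than Zp3. In Zar1/2-null oocytes the median was 48.8%, and 133, 99 and 89 kept no more than Zp1, Zp2 and Zp3. Of the 195 genes, 184 kept a larger share in Zar1/2-null than in WT oocytes. The set was chosen by WT GV level, which also divides the WT share, so the choice itself favours low WT shares. At MII 119 of the 195 genes (61.0%) were higher and 14 lower in Zar1/2-null oocytes (limma, adjusted p under 0.05), beside 21.5% and 10.3% of all genes. The median log2 fold change of the 195 was 0.96, and 30 had a larger one than Zp2. These counts are on the ERCC scale. There the median genotype difference in the GV-to-MII change over all genes was 0.48, against -0.17 in TPM. On the ERCC scale many abundant transcripts thus shared the direction of the zona genes.

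**Figure D3:**
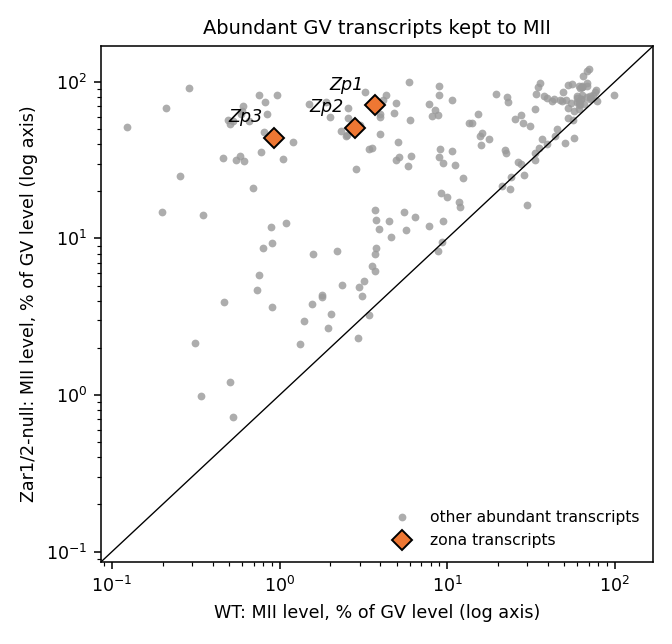
MII level as a percent of the GV level in WT (x axis) and Zar1/2-null oocytes (y axis), both log axes, for 195 other transcripts at least as abundant as Zp1 in WT GV oocytes (grey) and the 3 zona transcripts (orange). Each point is a ratio of means of 2 libraries in ERCC-scaled FPKM and the line marks equal shares. The zona transcripts lie far above the line, at 0.927% to 3.71% in WT and 43.8% to 70.7% in Zar1/2-null oocytes, and 184 of the 195 others also lie above it. The others were chosen by WT GV level, which also divides the WT share.

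The proportions among the 3 transcripts were compared within each library, since a ratio of genes of the same library holds no ERCC factor. In growing oocytes there was about as much Zp3 as Zp2, with Zp3/Zp2 ratios of 0.963 and 1.10 in WT and 1.05 and 1.12 in Zar1/2-null libraries. At the GV stage the ratios were 1.26 and 1.49 in WT and 1.19 and 1.39 in Zar1/2-null libraries. At MII they were 0.505 and 0.398 in WT and 1.21 and 1.01 in Zar1/2-null libraries. The genotypes overlapped in GV and growing oocytes and were apart at MII.

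The ratio Zp3/Zp1 behaved alike, with 1.21 and 0.783 in WT MII and 2.45 and 1.95 in Zar1/2-null MII libraries, against 3.69 and 4.0 in WT GV and 3.79 and 3.41 in Zar1/2-null GV libraries. The ratio Zp2/Zp1 overlapped between the genotypes at the growing, GV and MII stages, and its group means ranged from 1.97 to 2.82. Over the 3 stages, the mean genotype difference in the log2 ratio was 0.43 for Zp3/Zp2, 0.37 for Zp3/Zp1 and -0.07 for Zp2/Zp1. None passed 0.05 in a two-sided exact permutation test over all arrangements within stages, whose smallest possible p is 0.00926 (p = 0.176, 0.241 and 0.435, adjusted over the 3 ratios 0.361, 0.361 and 0.435). At MII alone the differences were 1.31, 1.17 and -0.14.

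A second test of the ratios was chosen after these values were seen. Each gene was expressed relative to Zp2 in its library and limma was fitted to all genes. From GV to MII in WT, Zp3 then fell by 1.56 on the log2 scale relative to Zp2 (standard error 0.19, adjusted p = 1.56e-06), and in Zar1/2-null oocytes its change was -0.21 (0.19, adjusted p = 0.351). The difference between the genotypes in this relative change was 1.35 (0.27, adjusted p = 0.000246). Relative to Zp1, it was 1.26 for Zp3 (0.46, adjusted p = 0.0115) and -0.09 for Zp2 (0.45, adjusted p = 0.842). Of 11501 genes, 11236 were called lower in this difference relative to Zp2 and 11232 relative to Zp1. With nearly all genes called, the adjustment over genes changes a p-value little, and all genes share the error of the gene that divides them.

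**Figure D4:**
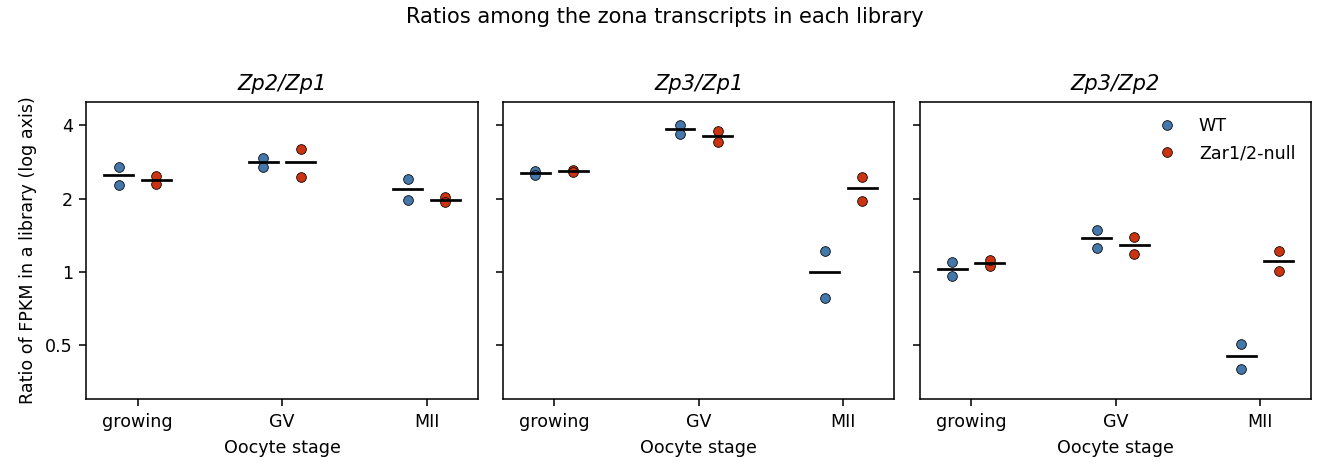
Ratios Zp2/Zp1, Zp3/Zp1 and Zp3/Zp2 of FPKM within each library (log axis) by oocyte stage in WT (blue) and Zar1/2-null (red) oocytes, with points for the 2 libraries of a group and black bars for their mean. Zp3/Zp2 at MII was 0.505 and 0.398 in WT and 1.21 and 1.01 in Zar1/2-null libraries, while Zp2/Zp1 overlapped between the genotypes at each stage.

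Genes with the most similar pattern were found by Pearson's r of log2(FPKM + 1) over the 12 libraries, among 4325 other genes that averaged 10 FPKM or more. The points share libraries, ERCC factors and groups, so r is a description. For Zp1 they were Paox (r = 0.996), Zp2 (0.995) and Tle6 (0.995), the last a gene of the subcortical maternal complex. For Zp2 they were Aldh7a1 (0.996), Napa (0.996) and Zp1 (0.995). For Zp3 they were Med28 (0.999), Chchd10 (0.996) and Nme6 (0.995), with Zp2 in 17th and Zp1 in 97th place. The r between Zp1 and Zp3 was 0.987 and that between Zp2 and Zp3 0.994.

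Transcription factors that act on zona genes or in oocyte growth were next examined. Of 8 listed genes Sohlh1 did not reach 1 FPKM in any library. In limma 4 of the 7 tested were higher in Zar1/2-null MII oocytes, beside 21.5% of all genes, with a median log2 fold change of 0.60. In TPM it was 2 of 7, Figla and Sohlh2, beside 2151 of all 11502 genes. Figla encodes the factor that activates zona genes together with the E proteins TCF3 and TCF12. It had 74.2 and 69.8 FPKM in WT GV, 80.5 and 67.6 FPKM in Zar1/2-null GV, 0.276 and 0.687 FPKM in WT MII, and 22.1 and 12.1 FPKM in Zar1/2-null MII libraries. Its log2 fold change at MII was 3.57 (standard error 0.24, adjusted p = 4.77e-07), an understated one because WT was under 1 FPKM. In growing and GV oocytes its differences were 0.47 and 0.03 (adjusted p = 0.152 and 0.916 from limma).

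Nobox, a homeobox factor of oocyte growth, had 317 and 397 FPKM in WT growing and 637 and 601 FPKM in Zar1/2-null growing libraries, a log2 fold change of 0.80 that did not pass the threshold (adjusted p = 0.0655 from limma). Tcf12 was the 1 listed factor called higher at that stage on the ERCC scale (0.69, adjusted p = 0.0139 from limma), and in TPM Tcf12 and Nobox both were (adjusted p = 0.0263 and 0.0221). Of all genes 10.6% were higher at that stage on the ERCC scale, and 1370 of 11502 in TPM. At MII Nobox had 7.63 and 14.9 FPKM in WT and 25.5 and 17.6 FPKM in Zar1/2-null libraries, which differed by 0.92 on the log2 scale in limma (standard error 0.31, adjusted p = 0.0415). Sohlh2 had 0.704 and 1.2 FPKM in WT MII and 4.45 and 4.46 FPKM in Zar1/2-null MII libraries, and Tcf3 0.810 and 0.959 against 1.58 and 2.14 FPKM. Their log2 fold changes were 1.49 and 0.60 (adjusted p = 9.94e-05 and 0.0411 from limma). In TPM the calls of Nobox and Tcf3 at MII were lost (adjusted p = 0.319 and 0.278 from limma). Lhx8, Tcf12 and Taf4b did not pass the threshold at MII, with log2 fold changes of 0.34, 0.13 and 0.09. From GV to MII all 7 were lower in WT and 5 in Zar1/2-null oocytes on the ERCC scale, near the 93.4% and 68.7% of all genes, while in TPM 3 were lower and 1 higher in either genotype. Over all 11502 genes in TPM, 4784 were lower and 3151 higher in WT, and 4458 and 2258 in Zar1/2-null oocytes.

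The genes that process zona proteins were examined at the stages before maturation as well. Pcsk5 did not reach 1 FPKM, and of the 8 tested genes 4 were lower in Zar1/2-null growing and 6 in Zar1/2-null GV oocytes in limma, beside 24.4% and 40.6% of all genes. The median log2 fold changes were -0.41 and -0.84, below the -0.16 and -0.38 of all genes. In TPM 3 and 4 were lower, beside 1446 and 1721 of all 11502 genes. Mgat1, which starts the complex N-glycans, had 8.15 and 8.0 FPKM in WT GV and 1.13 and 1.77 FPKM in Zar1/2-null GV libraries. C1galt1c1, the chaperone of the enzyme that extends O-glycans, had 32.8 and 21.9 against 7.04 and 11.4 FPKM. Fetub encodes fetuin-B, an inhibitor of ovastacin, and had 84.8 and 65.8 FPKM in WT GV and 33.5 and 41.0 FPKM in Zar1/2-null GV libraries.

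Beside 21.5% of all genes, 1 of the 8 processing genes was called higher at MII. It was Astl, which encodes ovastacin, the protease that cleaves ZP2 after fertilisation. Astl had 21.0 and 18.9 FPKM in WT MII and 107 and 104 FPKM in Zar1/2-null MII libraries, which differed by 2.35 on the log2 scale in limma (standard error 0.29, adjusted p = 6.75e-05). In GV oocytes Astl had 140 and 121 FPKM in WT and 74.4 and 154 FPKM in Zar1/2-null libraries, which overlapped. Like the zona genes it was highest in growing oocytes, with 332 and 483 FPKM in WT. In TPM Astl remained higher at MII (1.77, adjusted p = 0.000167 from limma), and Mgat1 and C1galt1c1 were then lower, by -1.31 and -0.91 (adjusted p = 0.000974 and 0.00597). Over all 11502 genes 2151 were higher and 4335 lower in TPM.

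Of 11 other genes with a ZP domain, 4 reached 1 FPKM in at least 1 library. At MII 1 of the 4 was higher (Dmbt1, 0.348 and 0.353 FPKM in WT against 1.25 and 1.19 FPKM in Zar1/2-null libraries) and 1 lower (Tgfbr3, 1.55 and 1.46 against 0.726 and 0.787 FPKM). Of all genes 21.5% were higher and 10.3% lower. Umodl1 was the abundant one, with 362 and 308 FPKM in WT GV, 33.5 and 65.5 FPKM in WT MII and 56.6 and 54.4 FPKM in Zar1/2-null MII libraries. Its genotype difference at MII was 0.24 on the log2 scale (standard error 0.26, adjusted p = 0.574 from limma), and the genotypes overlapped. Zpld1 did not pass the threshold at MII (log2 fold change -0.02).

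Of 6 other secreted oocyte factors, 4 were higher at MII in limma, beside 21.5% of all genes, with a median log2 fold change of 0.78. In TPM 2 were higher, Fgf8 and Plac1l, and 2 lower, Oosp1 and Gm97, beside 2151 higher and 4335 lower of all 11502 genes. Gdf9, a growth factor of the TGF-beta family, had 660 and 643 FPKM in WT MII and 1314 and 1238 FPKM in Zar1/2-null MII libraries. Bmp15, its close relative, had 255 and 353 against 434 and 476 FPKM, and Fgf8 was higher by 0.98 on the log2 scale. Plac1l (also Oosp2) had 124 and 76.3 against 318 and 240 FPKM. Oosp1 had 2881 and 2214 FPKM in WT MII and 2997 and 2446 FPKM in Zar1/2-null MII libraries, and its log2 fold change of 0.10 did not pass the threshold (adjusted p = 0.806 from limma), nor did that of Gm97 (also Oosp3), -0.20. Among these factors the difference at MII was 0.60 to 1.5 on the log2 scale where it passed the threshold, against 4.14 to 5.40 for the zona genes.

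**Figure D5:**
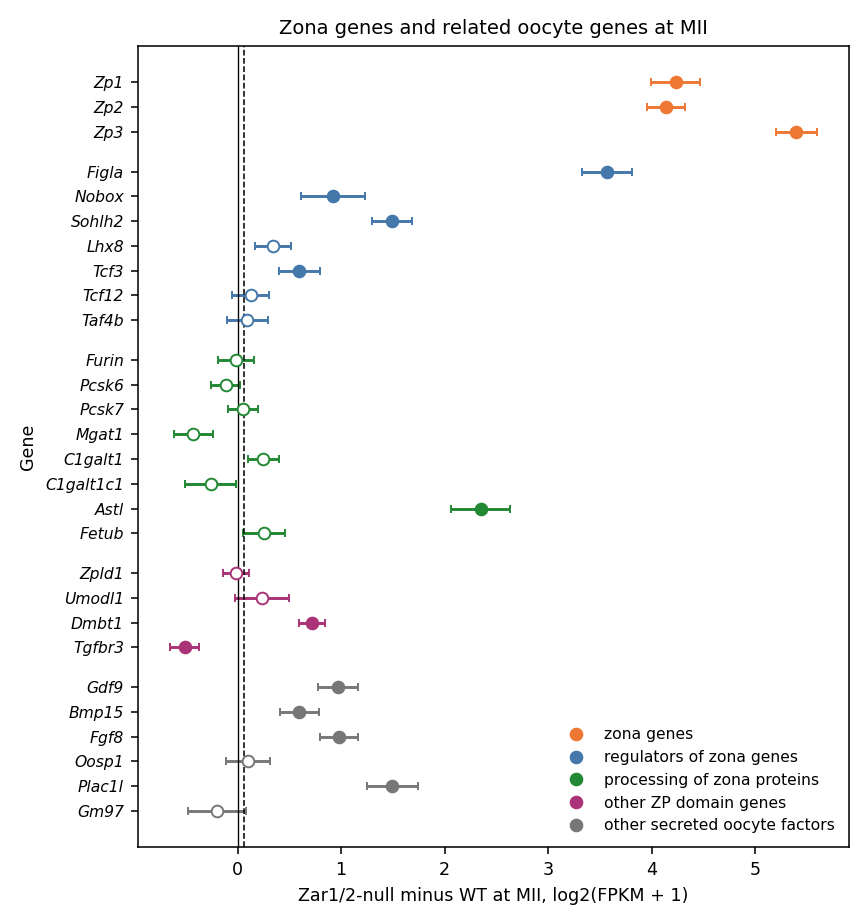
Zar1/2-null minus WT at MII on the log2(FPKM + 1) scale for the zona genes and the genes of 4 lists (regulators, processing genes, other ZP domain genes and secreted factors) that reached 1 FPKM in at least 1 library, coloured by list. Points are limma estimates from 2 libraries per group, bars their standard errors, filled points those with an adjusted p under 0.05, and the dashed line the median over all genes (0.06). The zona genes (4.14 to 5.40) stand to the right of the other genes plotted, which do not include the cell type markers, followed by Figla (3.57) and Astl (2.35).

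Markers of the oocyte were described in the same way. At MII 5 of 8 were higher and 1 lower in Zar1/2-null oocytes in limma, beside 21.5% and 10.3% of all genes, with a median log2 fold change of 0.78. Ooep, a gene of the subcortical maternal complex, had 131 and 105 FPKM in WT MII and 1329 and 955 FPKM in Zar1/2-null MII libraries, a difference of 3.25 on the log2 scale (adjusted p = 2.23e-07 from limma) that stood between those of Figla and Astl. Npm2 and Nlrp5 were higher by 1.78 and 1.72 (adjusted p = 1.76e-05 and 1.31e-05 from limma), and Kit was lower (-0.98, adjusted p = 0.00116). In TPM these 4 kept their direction, at 2.63, 1.16, 1.13 and -1.66. Dppa3 and Ddx4 did not pass the threshold at MII on the ERCC scale (0.16 and -0.22) and were lower in TPM (-0.47 and -0.86, adjusted p = 0.0128 and 0.00168 from limma). The granulosa marker Cyp19a1 had 12 and 9.96 FPKM in WT GV libraries, and its log2 fold change of 0.59 at MII did not pass the threshold (adjusted p = 0.202 from limma). In growing oocytes 2 of the 4 granulosa and cumulus markers tested were lower in Zar1/2-null libraries, beside 24.4% of all genes. Cyp19a1 was among them, with a log2 fold change of -1.76 (adjusted p = 0.00177 from limma).

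Because the zona transcripts have short 3′ UTRs, other genes with one as short were described. Of 121 other genes whose main transcript has a 3′ UTR of at most 34 nt, 44 (36.4%) were higher and 5 (4.13%) lower in Zar1/2-null MII oocytes, with a median log2 fold change of 0.25. Of 10438 genes with an annotated 3′ UTR, 22.0% were higher and 10.7% lower, with a median of 0.06. With the 3′ UTR taken as the longest of all coding transcripts of a gene and at most 193 nt, 534 of 1235 genes (43.2%) were higher and the median was 0.41. From GV to MII in WT the medians were -1.79 and -2.19 for these groups and -1.30 for all genes with a 3′ UTR. The zona genes stood beyond the medians of both groups.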

How the data were processed

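Genotype, stage and replicate number were read from the titles given to each library. Per the labels and the methods, the authors cut reads to 50 bp, used TopHat2 2.1.1 for mapping to mm9, and assigned them to genes with Cufflinks 2.2.1. The deposited values are FPKM that had been rescaled by ERCC spike-ins (synthetic RNAs, the same amount per lysate), with the WT growing library of the same replicate number as reference. No read counts were used here, and depth was taken only relative to the other libraries, although the paper lists the total reads of each. The estimated fragments cover counting error only. The factors were recovered from the values and divided out for the unscaled alternative.

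Group means of log2(FPKM + 1) were modelled for 11502 genes over the 12 libraries with limma 3.58.1 (R 4.3.3), using trended eBayes. P-values were two-sided and adjusted by Benjamini-Hochberg over all genes at 0.05. The pseudocount of 1 FPKM understates the change of low genes. For the 3-fold and 10-fold rules, means under 1 FPKM were set to 1 FPKM. Since nothing says that the 2 libraries of a group came from separate animals, p-values measure the spread between libraries, which may be technical. The fit was tested on simulated data. Ratios were tested with an exact permutation test in Python 3.11.15. Deviations of libraries with the same replicate number correlated weakly over genes (between -0.117 and 0.163 over 15 pairs of groups). A correlation over genes cannot see a shift common to all genes, such as the scaling reference shared by libraries of a replicate number.

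The members, lists and tests were chosen with earlier results of these data known. Genes named are the members, the targeted genes, listed genes and markers that passed at MII or had at least 10 FPKM in WT GV, and the 3 genes most like each member. Mgat1, C1galt1, Zpld1, Tcf12, Taf4b, Sohlh1, Pcsk5, Fshr and Kitl were named after their values were seen. Positions and 3′ UTRs came from the GENCODE annotation of mm9, in which 20205 of 23230 symbols had a coding transcript (main transcript: longest coding sequence), and promoters from RefSeq (GRCm38.p6). Alternatives were no ERCC scaling, TPM, median scaling, averaged ERCC factors, a pseudocount of 0.1 FPKM, a mean of at least 5 FPKM, no filter, a replicate block, only the groups compared, eBayes without a trend, and leaving out each library. The limma test of the ratios and the 3′ UTR of the main transcript were added after seeing the data.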

Additional observations from a re-analysis of the deposited data

Results flagged for a closer look

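The GV-to-MII change differed between the genotypes by the limma interaction (Benjamini-Hochberg adjusted p under 0.05) for each of the 3 zona genes, by 4.23 for Zp1, 4.14 for Zp2 and 5.49 for Zp3 on the log2 scale. The same test passed for the targeted genes, with 2.66 for Zar1 and 3.46 for Zar1l. Mean Zar1l went from 519 to 3.92 FPKM in WT and from 20.3 to 1.19 FPKM in Zar1/2-null oocytes. The last value is near the pseudocount of 1 FPKM, which understates the Zar1/2-null fall. Among the regulators of zona genes it passed for Figla (3.54), Sohlh2 (0.85), Lhx8 (0.73) and Tcf3 (0.91), and among the processing genes for Mgat1 (1.48), C1galt1 (1.25), C1galt1c1 (1.21), Astl (2.63) and Fetub (1.25). It also passed for Dmbt1 (1.22), Tgfbr3 (0.99), Gdf9 (1.31), Bmp15 (1.2) and Plac1l (1.91). Further calls were the oocyte markers Ooep (3.68), Npm2 (1.98) and Nlrp5 (2.03) and the granulosa markers Fshr (0.55) and Kitl (0.63). Kitl had GV and MII means of 1.22 and 0.301 FPKM in WT and 0.134 and 0.0352 FPKM in Zar1/2-null oocytes. Fshr had 1.19 and 0.0142 FPKM in WT and 0.514 and 0.0289 FPKM in Zar1/2-null oocytes. At such levels the pseudocount of 1 FPKM shapes the log2 changes, so the calls of Fshr and Kitl do not show a differing relative fall. The growing-to-GV change differed for Tcf12 (-1.07), C1galt1c1 (-1.55), Fetub (1.00), Tgfbr3 (-0.84) and Ddx4 (-1.57). Of all genes 33.9% passed as higher for the GV-to-MII change. For the growing-to-GV change 2.58% of all genes passed as higher and 11.3% as lower. The median GV-to-MII difference over all genes was 0.48, and for the zona genes the values were 3.75, 3.66 and 5.01 above it. With 2 libraries in each group, no group was large enough for a test of a single outlying library.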

How the results depend on the processing

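At MII and for the genotype difference in the GV-to-MII change, all 3 zona genes kept their direction and call under all 22 alternatives. The scaling changed other results. At the growing stage 2 genes were called without ERCC scaling and 1 in TPM, and at the GV stage 1 was called without ERCC scaling and 1 with median scaling. At the GV stage the log2 differences were 0.45 and 0.36 for Zp2 and Zp3 without ERCC scaling, 0.35 and 0.26 in TPM and 0.61 and 0.52 with median scaling, and averaged factors gave -0.00012 for Zp1. For Zar1/2-null MII versus GV, 1 gene (Zp1, higher) was called without ERCC scaling and 1 (Zp1, higher) in TPM. There Zp1 and Zp2 changed by 0.60 and 0.095 without ERCC scaling, by 0.64 and 0.13 in TPM, and with median scaling Zp1, Zp2 and Zp3 were called higher, at 1.24, 0.73 and 0.52. The genotype difference in the growing-to-GV change became 0.0026 and 0.053 for Zp1 and Zp2 without ERCC scaling, and 0.26, 0.31 and 0.14 for the 3 genes with median scaling. The cause was not tested.

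With 1 library left out, 2 instead of 3 genes were called for WT GV versus growing without WT growing replicate 2 or WT GV replicate 2, and 3 instead of 2 for Zar1/2-null MII versus GV without Zar1/2-null GV replicate 1, and the other counts did not change. The GV difference ranged from -0.33 to 0.34 for Zp1, from -0.20 to 0.19 for Zp2 and from -0.35 to 0.17 for Zp3 in these fits. The growing-to-GV difference between genotypes ranged from -0.50 to 0.17 for Zp1 and from -0.31 to 0.083 for Zp2. The lone library of a group was then taken to vary like the other groups.

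The mean ratio differences rested on MII: without the MII stage the mean log2 difference was -0.035 for Zp3/Zp1 and -0.0049 for Zp3/Zp2. With limma at MII (chosen after seeing the data) it passed the threshold, at 1.16 and 1.26. In these fits 11343 (relative to Zp1) and 11342 (relative to Zp2) of 11501 genes were called lower. With the replicate block, the counts of zona genes called were 3 at MII, 2 for Zar1/2-null MII versus GV and 0 at the growing and GV stages, the same as without the block. With 2 libraries per group, a genotype difference at one stage cannot be tested by permutation at 0.05, and a small one cannot be told from the spread.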
